A study of Mus musculus with 80 samples.

Results

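RNA pulled down with ribosomes tagged in Cx3cr1+ cells was compared with the Input RNA of the same homogenates in intact mouse brain. The Input was a part of the supernatant kept after the homogenate was centrifuged and before the pulldown, and both fractions were sequenced as poly(A) RNA. The comparison used the libraries titled as tissue positive and tissue input fractions of 4 mice (946, 947, 948 and 949) in the sort comparison, which made 8 of the 80 libraries of the series, 4 Tissue-TRAP and 4 Tissue-Input. Every gene of the table was considered, and 14982 genes passed the expression filter and were tested. All 8 libraries came from mice of the genotype Cx3cr1(Jung)-cre/Ert2+;NuTRAP+, and all mice had received tamoxifen by intraperitoneal injection at 100 mg/kg daily at about 3 months of age. The groups therefore shared genotype, treatment and animal, and differed in the fraction sequenced. No Cre-negative pulldown was among these 8 libraries, so RNA held by the beads without a tagged ribosome was not measured in this comparison.

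In Cx3cr1-NuTRAP mice the Cx3cr1 locus drives a tamoxifen-dependent Cre recombinase, which removes a stop cassette from the NuTRAP allele. The recombined cells then carry an eGFP-tagged ribosomal protein L10a, and their nuclei carry biotin and mCherry. Translating ribosome affinity purification (TRAP) pulls the tagged ribosomes down with an antibody against GFP, and the messenger RNA bound to them is sequenced. Microglia, the resident macrophages of the brain parenchyma, are the main Cx3cr1+ cells of the brain, and the macrophages of the meninges and perivascular spaces also express the gene. In bulk samples fewer cells of a type and less RNA per cell cannot be told apart.

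The Tissue-Input libraries held 15605669 to 17476508 gene counts and the Tissue-TRAP libraries 12435688 to 16185756 gene counts. Levels are given as CPM, the counts of a gene per fixed number of library counts, after TMM scaling, and differences as log2 fold changes of Tissue-TRAP against Tissue-Input with the standard error of the fit. The brain label was checked with the neuronal genes Snap25 and Slc17a7 and the oligodendrocyte gene Mbp, which were above 1000 CPM in all 4 Tissue-Input libraries. Mouse 947 stood apart from the other mice in both fractions. Its Tissue-Input held more microglial RNA, with the 30 defining microglial genes at 0.124% of counts against 0.0870% in the lowest library, and its median log2 ratio over these genes was 3.95 against 4.58 to 4.74 in the other mice.

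A gene was called when its p adjusted by Benjamini-Hochberg was under 0.1 in the quasi-likelihood test of edgeR, fitted with mouse as a block, and its fold change was above 2. In all, 1334 genes (8.9% of those tested) were higher in Tissue-TRAP and 495 (3.3%) were lower. The number lower was 272 with a minimum of 10 counts in every library and 226 with limma. The 2 directions differed in size as well as number, since the median log2 fold change was 2.10 among the genes called higher and -1.33 among the genes called lower. Beyond 4-fold there were 694 higher and 70 lower genes, beyond 8-fold 439 and 12, and beyond 16-fold 240 and 1. The bulk of the transcriptome moved little. The median over all genes tested was -0.01, its quartiles were -0.29 and 0.29, and 87.7% of the genes differed by less than a factor of 2. Of the genes called higher, 1320 had the same direction in 4 of 4 mice, as had 478 of those called lower.

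**Figure D1:**
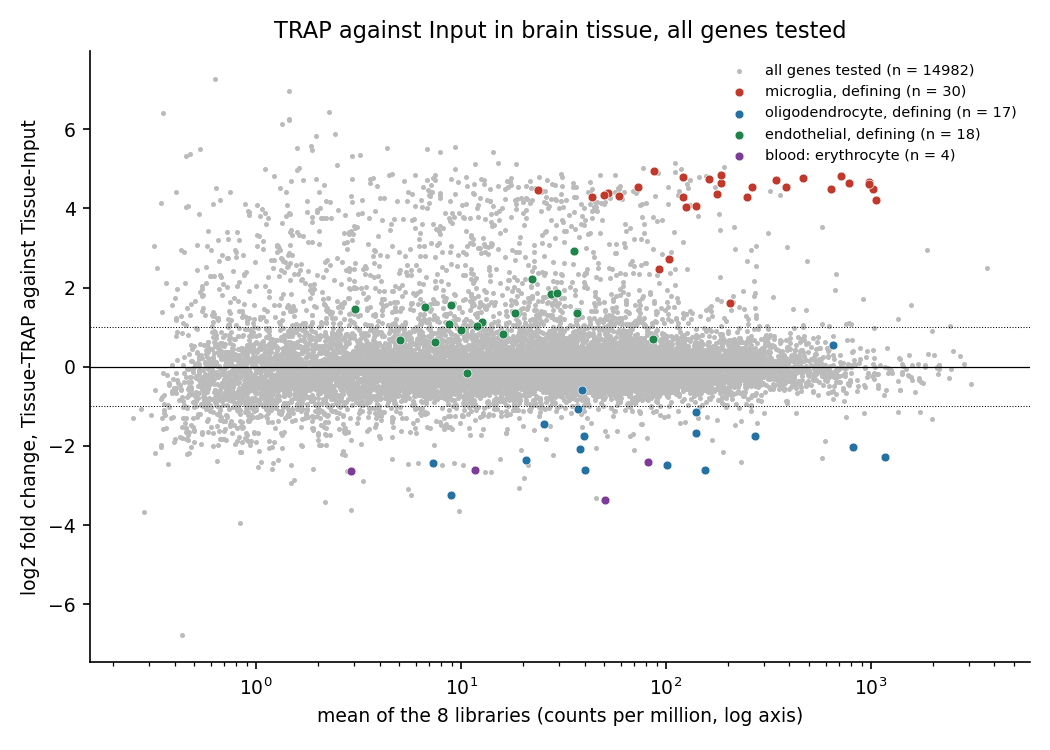
Each point is 1 of the 14982 genes tested, with its mean level over the 8 libraries on the x axis (CPM, log axis) and the log2 fold change of Tissue-TRAP against Tissue-Input on the y axis; dotted lines mark a 2-fold change. The defining microglial genes lie between 1.61 and 4.96, the endothelial genes mostly above 0, and the oligodendrocyte genes mostly and the 4 erythrocyte genes all below 0.

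The Cx3cr1 gene itself, which encodes the fractalkine receptor and whose locus drives the Cre, lay at 22.1, 31.2, 20.8 and 23.1 CPM in the Tissue-Input libraries of mice 946, 947, 948 and 949. In their Tissue-TRAP libraries it lay at 436, 488, 506 and 468 CPM. Every TRAP library was above every Input library, and the log2 fold change was 4.3 ± 0.10 (adjusted p = 4.76e-12), a 19.7-fold rise. The table places the gene on chromosome 9 from 120048683 to 120068296 of mm10, minus strand. The other genes whose products the NuTRAP system tags moved less. Rpl10a, the endogenous ribosomal protein gene, changed by 0.86 ± 0.07 and did not pass the fold threshold, and Rangap1, the source of the nuclear membrane tag, changed by 0.23 ± 0.07. A coding sequence added by the transgene could not be separated from the endogenous gene in these counts.

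All 30 genes of the list of defining microglial genes rose, with a median of 4.50 beside -0.01 for all genes tested. Csf1r, the receptor microglia need for survival, lay at 76.6, 123, 77.4 and 75.9 CPM in Tissue-Input and at 1998, 1733, 2169 and 1929 CPM in Tissue-TRAP. The Csf1r level of mouse 947 in Input was the highest of the Inputs and its TRAP the lowest of the TRAP libraries, while the fractions themselves were far apart. The log2 fold change of Csf1r was 4.50 ± 0.14.

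The homeostatic receptor P2ry12, which senses ADP, rose by 4.29 ± 0.13, the membrane protein gene Tmem119 by 4.55 ± 0.13, the lectin gene Siglech by 4.74 ± 0.13 and the actin-bundling protein gene Aif1 (IBA1) by 4.96 ± 0.13. Aif1 went from 4.40 to 6.81 CPM in Tissue-Input to 146 to 188 CPM in Tissue-TRAP. The smallest changes of the list were those of the adhesion receptor Gpr56 (1.61 ± 0.07), the transcription factor Sall1 (2.47 ± 0.09) and the Golgi protein gene Golm1 (2.72 ± 0.07). These 3 genes were at 25.1 CPM or more in every Tissue-Input library.

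**Figure D2:**
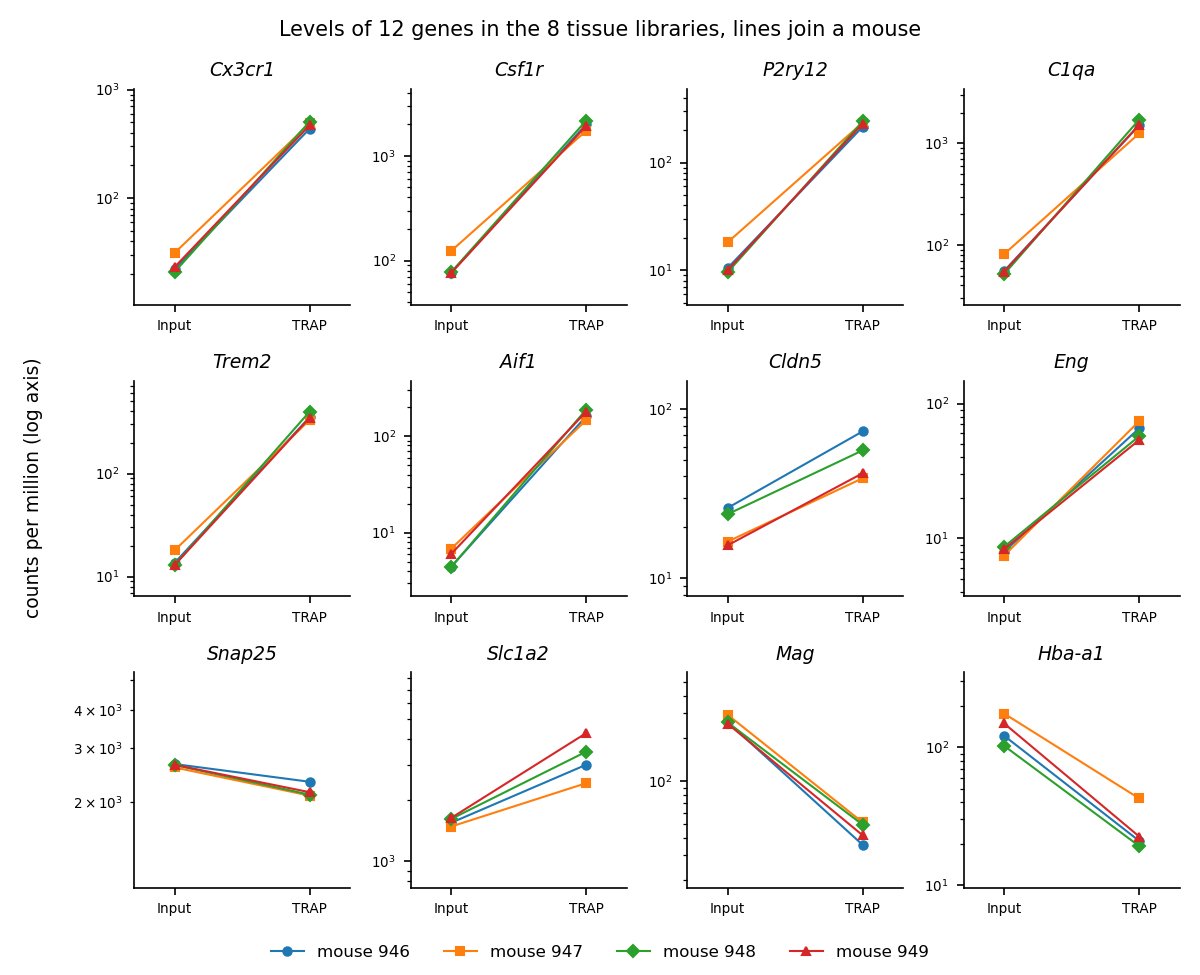
Levels (CPM, log axis) of 12 genes in the 4 Tissue-Input and 4 Tissue-TRAP libraries, with a line joining the libraries of a mouse. Cx3cr1, Csf1r, P2ry12, C1qa, Trem2 and Aif1 rise in every mouse, Cldn5, Eng and Slc1a2 rise less, Snap25 changes by -0.28 on the log2 scale, and Mag and Hba-a1 fall.

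The larger published list of microglial markers that the study used gave the same direction. Of its 276 genes tested, 261 rose and none fell, with a median of 3.80. Its members took 0.605% ± 0.0477 of all counts in Tissue-Input (SD, n = 4) and 4.94% ± 0.337 in Tissue-TRAP, an 8.16-fold rise of their share. Among the 15 members not called were Nfkbiz, an inducible regulator of NF-kappaB, at -0.63 ± 0.18, and Sirpa, a receptor of the CD47 signal, at 0.75 ± 0.05. These 261 genes were 19.6% of all genes called higher, and 869 genes called higher (65.1%) stood in none of the 47 lists examined.

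Genes of Fc receptors and of signalling through immunoreceptor tyrosine-based motifs (ITAM) rose almost as a whole. Of 24 genes 23 were called higher, with a median of 4.40, and the 1 not called changed by 0.75. Microglia use these receptors and their adaptors to respond to lipids, debris and antibody. The adaptor gene Tyrobp lay at 11.4, 15.0, 10.7 and 12.8 CPM in Tissue-Input and at 324, 351, 415 and 336 CPM in Tissue-TRAP. Its partner Trem2, a receptor of lipids and apolipoproteins, lay at 13.6, 18, 13 and 12.9 CPM in Tissue-Input and at 352, 331, 399 and 348 CPM in Tissue-TRAP. The rises were 4.84 ± 0.11 and 4.64 ± 0.11. The Fc receptor gene Fcgr3 rose by 5.06 ± 0.13 and the shared gamma chain gene Fcer1g by 4.93 ± 0.11. Fcgr3 counts may include reads shared with near-identical Fc receptor genes.

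Transcription factors of the macrophage lineage were called higher in 16 of 19 cases, with a median of 2.46. Sfpi1, now named Spi1, encodes PU.1, the factor that specifies the myeloid lineage. It lay at 2.96 to 5.81 CPM in Tissue-Input and at 130.2 to 181 CPM in Tissue-TRAP, a rise of 5.01 ± 0.13. Cebpa rose by 3.41 ± 0.12. Mef2c and Smad3 were not called, at 0.66 ± 0.08 and 0.12 ± 0.06. Mef2c, which neurons also express, lay at 262 to 300.4 CPM in Tissue-Input and at 359.9 to 581 CPM in Tissue-TRAP.

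Since PU.1 binds purine-rich sites with a GGAA core, the bases before the start of 3 genes of the lists above are shown, read 5′ to 3′ on the gene's strand from RefSeq (GRCm38.p6). Capitals mark the letters GAGGAA or, on the other strand, TTCCTC, and the 100 bases end at the base before the start. The Fcgr3 stretch is chr1:171059404-171059503 (minus strand), the Trem2 stretch is chr17:48346301-48346400 (plus strand) and the Cx3cr1 stretch is chr9:120068297-120068396 (minus strand).
Fcgr3: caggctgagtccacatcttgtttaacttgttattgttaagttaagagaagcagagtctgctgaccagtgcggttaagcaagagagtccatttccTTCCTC
Trem2: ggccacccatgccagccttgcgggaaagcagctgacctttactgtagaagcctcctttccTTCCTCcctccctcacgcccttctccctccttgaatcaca
Cx3cr1: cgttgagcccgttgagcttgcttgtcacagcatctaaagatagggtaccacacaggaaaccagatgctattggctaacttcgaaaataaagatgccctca
The letters were present at position -6 of Fcgr3 and at position -40 of Trem2, counted back from the start, and were not in the Cx3cr1 stretch. The core alone, GGAA or TTCC, was present 2 times in the Fcgr3 stretch, 3 times in that of Trem2 and 1 time in that of Cx3cr1, including those inside the capitals, and 66.8% of all promoters held it. Of all 32851 promoters of the table, 9.82% held them within 100 bases before the start. Promoters were given for 78.9% of the genes tested, and shares over the called genes were therefore not computed.

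Pattern recognition and complement genes rose with the microglial genes. Of 25 Toll-like receptor genes and their partners, 20 rose and none fell, with a median of 3.32. At a minimum of 10 counts in every library 18 were tested and 13 rose, with a median of 2.78. Unc93b1, which carries the nucleic acid receptors to endosomes, rose by 4.55 ± 0.10 and the MD-1 gene Ly86 by 4.80 ± 0.10. Irak1, a kinase used in many cell types, changed by 0.29 ± 0.08. Of 20 complement genes, 10 rose and 1 fell, and with the same minimum 8 of 18 rose and 1 fell. The genes of the C1q complex, which tags synapses and debris, rose by 4.64 ± 0.15 (C1qa), 4.68 ± 0.10 (C1qb) and 4.83 ± 0.10 (C1qc). C1qa lay at 55.5, 81.3, 51.7 and 54.5 CPM in Tissue-Input and at 1510.1, 1257, 1717 and 1529 CPM in Tissue-TRAP. The receptor genes C3ar1 (4.17 ± 0.18) and Itgam (4.37 ± 0.10) rose by similar amounts. C3 itself, the central component, lay at 1.61 to 4.03 CPM in Tissue-Input and at 3.34 to 7.29 CPM in Tissue-TRAP, and its change of 0.65 ± 0.22 did not pass the fold threshold. Serping1, the C1 inhibitor gene, was the member that fell, by 1.05 ± 0.20 on the log2 scale, and without mouse 948 or mouse 949 its change was -0.90 or -0.95, under the fold threshold.

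Lysosomal genes split between a group that rose with the microglial genes and a group that hardly moved. Of 32 genes, 20 rose and 1 fell, with a median of 1.89. Cst3, the cystatin C gene, lay at 1102, 1212, 1056 and 1034 CPM in Tissue-Input and at 6718, 5245, 6781 and 6302 CPM in Tissue-TRAP, a rise of 2.50 ± 0.08. Ctsd, a lysosomal protease gene, rose by 2.95 ± 0.10 and the lysozyme gene Lyz2 by 4.83 ± 0.11. Psap, the precursor of the saposins, changed by 0.40 ± 0.05 from levels of 2078 to 2259.8 CPM in Tissue-Input. Ctsk, a protease known from osteoclasts and fibroblasts, was the member that fell (-1.64 ± 0.32). With a minimum of 10 counts in every library 31 genes were tested, 20 rose and none fell.

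Antigen presentation genes rose in both classes. Of 9 genes of class II presentation, 8 rose, among them the invariant chain gene Cd74, which lay at 9.63 to 12.8 CPM in Tissue-Input and at 118 to 204 CPM in Tissue-TRAP (3.80 ± 0.10). H2-Aa rose by 3.70 ± 0.12 and H2-Ab1 by 3.67 ± 0.16. Only 5 class II genes had a minimum of 10 counts in every library, and these 5 rose. Of 21 genes of class I presentation, 13 rose and none fell, with B2m, the light chain, at 3.38 ± 0.09 and the immunoproteasome gene Psmb8 at 4.11 ± 0.11. The chaperone genes Calr (0.41 ± 0.05) and Canx (0.14 ± 0.06), which all cells use, were not called. Of 27 interferon-stimulated genes, 17 rose and none fell, with a median of 1.35. Ifi204, a DNA sensor gene, had the largest rise of these (3.75 ± 0.50) at 0 to 0.679 CPM in Tissue-Input.

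Genes known from disease-associated microglia, a state described around amyloid, were more mixed than the homeostatic genes. Of 24 genes, 15 rose and 1 fell, with a median of 1.54. With a minimum of 10 counts in every library 20 were tested, 11 rose and 1 fell, with a median of 1.06. Ccl6, a chemokine gene, rose by 5.11 ± 0.16. Apoe, which astrocytes also express, lay at 2509, 2730.0, 2354 and 2233 CPM in Tissue-Input and at 3008, 2424, 3444 and 2962 CPM in Tissue-TRAP. The fractions overlapped for Apoe, mouse 947 moved the other way from the other 3 mice, and the change was 0.26 ± 0.09. Fth1, the ferritin heavy chain gene, fell by 1.16 ± 0.05 on the log2 scale, from 1169 to 1378 CPM in Tissue-Input to 522 to 645 CPM in Tissue-TRAP.

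The receptors by which microglia sense other brain cells were compared with the ligands of those receptors. Of 11 receptor genes 10 rose, with a median of 4.17, while of 9 ligand genes 1 rose, with a median of 0.21. The ligand gene that rose was the cytokine gene Il6, at 0 to 0.121 CPM in Tissue-Input, which is 2 counts or fewer, and at 0.385 to 0.955 CPM in Tissue-TRAP, and it did not pass a minimum of 10 counts. The ligands of Csf1r, Il34 and Csf1, changed by -0.45 ± 0.07 and -0.23 ± 0.09 beside the 4.50 of the receptor. Cx3cl1, the ligand of Cx3cr1 made by neurons, lay at 564 to 665 CPM in Tissue-Input and at 638 to 837 CPM in Tissue-TRAP (0.19 ± 0.06). Cd200r1 rose by 2.67 ± 0.46 at 0.121 to 0.751 CPM in Tissue-Input, and its ligand Cd200 changed by -0.12 ± 0.07. In the Sirpa and Cd47 pair neither gene was called, at 0.75 ± 0.05 and 0.21 ± 0.07. In the TGF-beta pathway, which maintains microglial identity, 6 of 24 genes rose, with a median of 0.29. They included the ligand gene Tgfb1 (4.27 ± 0.10), the receptor gene Tgfbr1 (3.86 ± 0.18) and the coreceptor gene Eng (2.93 ± 0.11), whereas Tgfb2 changed by 0.38 ± 0.13. The cytokine receptor genes Tnfrsf1b and Il6ra rose by 4.01 ± 0.18 and 3.91 ± 0.17.

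Purinergic genes separated by receptor. Of 18 genes, 8 rose and 1 fell. The nucleotide receptor gene P2ry13 (4.3 ± 0.12), the receptor gene Gpr34 (4.38 ± 0.25), the ectonucleotidase gene Entpd1 (3.79 ± 0.10) and the adenosine A3 receptor gene Adora3 (4.38 ± 0.22) rose. The adenosine A1 receptor gene Adora1 changed by -0.20 ± 0.07. Adora2a, an adenosine receptor gene of striatal neurons, lay at 41.8, 33.6, 40.4 and 42.7 CPM in Tissue-Input and at 10.8, 8.66, 16.3 and 21.7 CPM in Tissue-TRAP, and was the member that fell (-1.51 ± 0.15).

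Regulators of the haematopoietic cytoskeleton rose in 20 of 23 cases, with a median of 4.13. Rac2, a small GTPase of leukocytes, rose by 4.80 ± 0.13, and Coro1a, an actin regulator present at 115 to 126 CPM in Tissue-Input, by 1.15 ± 0.10. Among 24 glycolytic genes and transporters, 4 rose, with a median of -0.06 that was 0.02 without mouse 947 and -0.10 without mouse 946. The rises included the fructose transporter gene Slc2a5 (4.53 ± 0.11) and the hexokinase gene Hk3 (4.56 ± 0.15), whereas the widely used enzymes Aldoa (0.04 ± 0.05), Gapdh (0.04 ± 0.05) and Pkm (-0.06 ± 0.06) stayed within the spread between mice. The small values of Aldoa and Gapdh turned negative with library totals in place of TMM, and that of Pkm turned positive without mouse 947. Of 22 cytokine and chemokine genes listed, 14 passed the expression filter and 11 of these rose, with a median of 2.94. The filter could be passed through Tissue-TRAP alone. With a minimum of 10 counts in every library 7 were tested and 4 rose, with a median of 1.18. Ccl9 changed by 5.16 ± 0.24 and Il16 by 1.19 ± 0.08, while Cxcl14, a chemokine gene of neurons, changed by 0.29 ± 0.07.

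Markers of border-associated macrophages rose with the microglial genes, in 17 of 18 cases and with a median of 4.01. Here too the filter could be passed through Tissue-TRAP alone. With a minimum of 10 counts in every library 11 were tested and 10 rose, with a median of 3.80. The mannose receptor gene Mrc1 lay at 3.26, 4.94, 4.15 and 5.33 CPM in Tissue-Input and at 62.7, 52.2, 66.8 and 70.2 CPM in Tissue-TRAP. The rise was 3.83 ± 0.12 for Mrc1, 4.60 ± 0.14 for F13a1, 4.88 ± 0.38 for Ms4a7 and 3.80 ± 0.13 for the scavenger receptor gene Stab1. Of the blood markers, no neutrophil gene of 8 listed passed the expression filter. Of 3 monocyte genes tested 1 rose, Ly6c2, at 0.333 to 1.88 CPM in Tissue-Input and 2.31 to 5.83 CPM in Tissue-TRAP (2.20 ± 0.38). With a minimum of 10 counts in every library 2 of the monocyte genes were tested and none rose. Fn1 and Itgal, of the same list, changed by 0.13 ± 0.12 and 0.41 ± 0.38. Of 2 lymphocyte genes tested, Cd4 changed by 0.27 ± 0.15 and Cd79b, a B cell receptor gene named after its value was seen, rose by 5.89. Cd79b had at most 3 counts in every Tissue-Input library and did not pass a minimum of 10 counts.

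Genes near variants associated with Alzheimer disease in people were examined as mouse orthologues. Of 30 tested 13 rose and none fell, with a median of 0.74, and without mouse 947 1 fell. Trem2, Sfpi1 and Cd33 (4.47 ± 0.17) were among the rises. App, the amyloid precursor gene, changed by -0.36 ± 0.06, the tau gene Mapt by 0.20 ± 0.05 and the kinase gene Ptk2b by -0.35 ± 0.07.

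Genes of oligodendrocytes, the myelinating cells, formed the largest group that fell among the lists, and the study's list of them held 15.2% of the 495 genes called lower. Of 17 defining genes 15 fell and none rose, with a median of -2.02, and in the larger list of the study 75 of 193 fell and 5 rose, with a median of -0.80. Mbp, a myelin protein gene, lay at 2039.6, 2149.9, 1851 and 1728 CPM in Tissue-Input and at 348, 524, 382 and 357 CPM in Tissue-TRAP. Mag, which encodes a myelin adhesion protein, lay at 260.2, 293, 258 and 253 CPM in Tissue-Input and at 35.5, 51.1, 49.2 and 41.4 CPM in Tissue-TRAP. No TRAP library reached an Input library for these genes, and the changes were -2.28 ± 0.08 for Mbp and -2.60 ± 0.08 for Mag. The oligodendrocyte genes Opalin (-3.23 ± 0.21) and Ermn (-2.61 ± 0.10) also fell. Trf, the transferrin gene, went against the rest of the list at 0.55 ± 0.06.

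The progenitors of these cells showed the same direction. Of 12 genes 8 fell, with a median of -1.41. Pdgfra, the receptor that marks the progenitors, fell by 1.50 ± 0.11 on the log2 scale, and the proteoglycan gene Cspg4 by 1.54 ± 0.12. Olig1 fell by 1.40 ± 0.08 and Olig2 by 1.11 ± 0.10, and without mouse 947 the change of Olig2 was -0.998 and just inside the fold threshold. Enpp6 and Bcas1, genes of cells that begin to myelinate, fell by 2.22 ± 0.33 and 2.09 ± 0.10. Gpr17 changed by -0.78 ± 0.10 and was not called.

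Choroid plexus, meningeal and erythrocyte genes were examined next. Of 15 genes of choroid plexus and ependyma 9 fell, with a median of -1.20. Ttr, the thyroid hormone carrier gene, lay at 1122, 993, 967 and 738 CPM in Tissue-Input and at 186, 214, 233 and 149 CPM in Tissue-TRAP (-2.29 ± 0.08). Folr1, a folate receptor gene, changed by -2.47 ± 0.21 and Enpp2 by -2.40 ± 0.07. Of 12 fibroblast and meningeal genes 4 fell, among them the prostaglandin synthase gene Ptgds (-1.89 ± 0.06) and the transporter gene Slc6a13 (-1.52 ± 0.15). All 4 erythrocyte genes tested fell, with a median of -2.61. Hba-a1 lay at 121, 175, 102 and 149 CPM in Tissue-Input and at 21.0, 42.5, 19.2 and 22.5 CPM in Tissue-TRAP, where mouse 947 was the highest in both fractions. The globin genes are near-identical copies, and the division of reads between them is uncertain.

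Genes of astrocytes and neurons moved little beside those groups. Of 20 defining astrocyte genes 1 rose and 1 fell, with a median of -0.52, and of 19 defining neuronal genes none rose and 1 fell, with a median of -0.20. Snap25, a synaptic fusion protein gene, lay at 2593 to 2659 CPM in Tissue-Input and at 2097 to 2327 CPM in Tissue-TRAP (-0.28 ± 0.05). The 97 neuronal markers of the study took 2.84% ± 0.0199 of counts in Tissue-Input and 2.36% ± 0.0907 in Tissue-TRAP. Camk2a and Slc17a7, genes of excitatory neurons, changed by 0.08 ± 0.06 and 0.23 ± 0.08, and the value of Camk2a turned slightly negative with library totals. Slc1a2, the main glutamate transporter gene of astrocytes, was the defining astrocyte gene that rose. It lay at 1548, 1484, 1617 and 1635 CPM in Tissue-Input and at 2992, 2427, 3469 and 4284 CPM in Tissue-TRAP (1.04 ± 0.09), and its value was 0.95 with library totals and 0.92 without mouse 949, under the fold threshold. Aldoc changed by -0.14 ± 0.07, and Agt, the angiotensinogen gene, fell by 1.09 ± 0.07 on the log2 scale.

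Neuropeptide and receptor genes of neurons were also counted. Of 19 neuropeptide genes 3 rose and none fell, with a median of 0.25 that was 0.13 without mouse 946 and 0.41 without mouse 949. Vip, made by a class of cortical interneurons, lay at 20.5, 21.0, 21.4 and 23 CPM in Tissue-Input and at 78.1, 52, 70.7 and 83.5 CPM in Tissue-TRAP (1.71 ± 0.10). The neuropeptide genes Cck (-0.69 ± 0.06), Penk (-0.48 ± 0.06) and Sst (0.19 ± 0.08) were not called. Of 34 glutamate and GABA receptor genes 2 rose, the NMDA receptor gene Grin2b (1.61 ± 0.09) and the GABA receptor gene Gabrb1 (1.21 ± 0.10), with a median of -0.22 over the list, and this count was a smaller share than the 8.9% of all genes called higher. Gria2, an AMPA receptor gene, changed by -0.16 ± 0.07. None of 14 genes whose messenger RNA is known to be localised to dendrites was called, with a median of -0.33.

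Endothelial cells line the vessels of the brain. Of 18 defining genes 12 rose and none fell, with a median of 1.24, and of the 229 genes of the study's list 77 rose and 1 fell, with a median of 0.67, and 2 fell without mouse 946 and none without mouse 948 or 949. Cldn5, a tight junction gene of the blood-brain barrier, lay at 26, 16.5, 23.9 and 15.6 CPM in Tissue-Input and at 74, 39.1, 57.1 and 41.8 CPM in Tissue-TRAP (1.36 ± 0.08). Eng, an endothelial and macrophage coreceptor, lay at 7.48 to 8.69 CPM in Tissue-Input and at 53.7 to 74.1 CPM in Tissue-TRAP. The glucose transporter gene Slc2a1 changed by 0.71 ± 0.07 and was not called. Of 11 genes of mural cells, which surround the same vessels, none was called, with a median of -0.10 that lay between -0.18 and -0.05 when each mouse was left out. Pdgfrb changed by -0.10 ± 0.12, Notch3 by -0.09 ± 0.11 and Vtn by -0.59 ± 0.08. The endothelial genes of the study's list took 0.439% ± 0.00730 of counts in Tissue-Input and 0.649% ± 0.0281 in Tissue-TRAP.

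**Figure D3:**
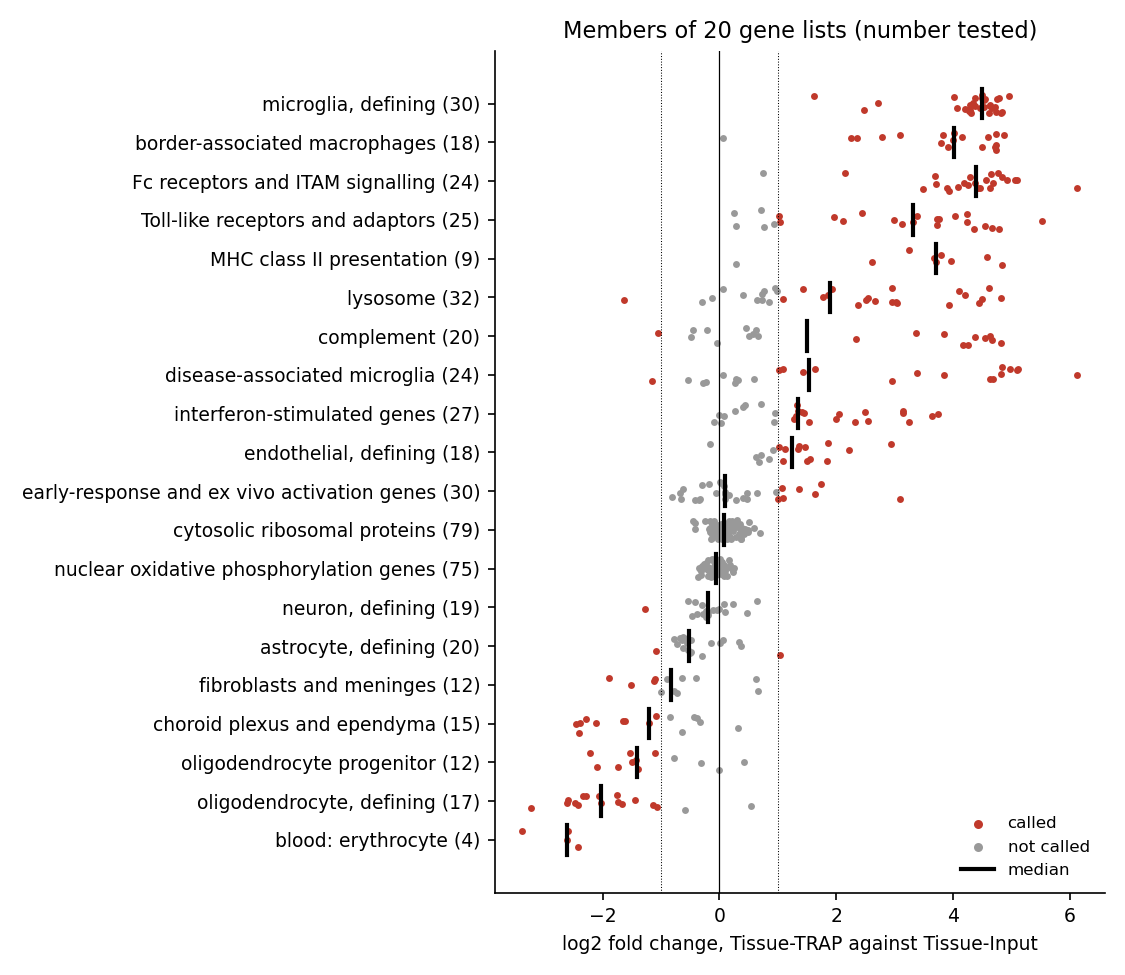
Each point is a gene of 1 of 20 lists, placed by its log2 fold change of Tissue-TRAP against Tissue-Input; red points were called, grey points were not, black bars are medians and the number tested stands beside each list. Myeloid lists have medians from 1.35 to 4.50, the endothelial list lies at 1.24, ribosomal, respiratory and neuronal genes lie near 0, and the medians of the oligodendrocyte and erythrocyte genes are -2.02 and -2.61.

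Among genes called, moving the same way in 4 of 4 mice and with a mean of at least 5 CPM, Slamf9, a leukocyte receptor gene, had the largest rise. It lay at 0.313, 0.784, 0.476 and 0 CPM in Tissue-Input and at 17.2, 20.5, 18.8 and 16.2 CPM in Tissue-TRAP, a change of 5.55 ± 0.31. Ms4a6b (5.50 ± 0.23), the NADPH oxidase subunit gene Ncf4 (5.43 ± 0.17) and Arl11 (5.43 ± 0.35) followed, and differed from it by less than its standard error. Bin2 (5.14 ± 0.11) and Hcls1 (5.01 ± 0.15), genes of leukocyte membrane and actin regulators, rose at higher levels. The crystallin genes Cryba4 (5.12 ± 0.18) and Crybb1 (4.90 ± 0.11), named for the eye lens, also stood among the 15 largest rises. Crybb1 went from 4.96 to 7.78 CPM in Tissue-Input to 162 to 199 CPM in Tissue-TRAP.

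By the same criteria the largest fall was that of Klk6, a secreted protease gene of oligodendrocytes, from 14.7 to 21.4 CPM in Tissue-Input to 1.16 to 1.78 CPM in Tissue-TRAP (-3.65 ± 0.16, 12.5-fold lower). The beta globin genes Beta-s and Hbb-b1 changed by -3.38 ± 0.12 and -3.31 ± 0.10. Peg3as, the antisense transcript of the imprinted gene Peg3, lay at 7.73 to 11.1 CPM in Tissue-Input. In Tissue-TRAP it lay at 6.21 CPM in mouse 946 and at 0 in the other 3 mice, so its value of -3.23 ± 0.78 averages unlike mice. Beside the groups above, 382 of the 495 genes called lower (77.2%) stood in none of the lists.

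Long noncoding RNAs, which are not translated, were examined as a group. Of 15 long noncoding RNAs known to be retained in nuclei 7 fell and none rose, with a median of -0.93. Meg3 lay at 2445, 3039, 2709 and 2871 CPM in Tissue-Input and at 663, 2004, 956 and 1183 CPM in Tissue-TRAP, a change of -1.32 ± 0.15. Miat changed by -1.48 ± 0.13 and 2900097C17Rik by -1.14 ± 0.07, whereas Peg13 changed by -0.17 ± 0.05. Mouse 947 fell the least, with a median log2 ratio of -0.21 over the list against -1.69, -0.99 and -0.81 in mice 946, 948 and 949, and 9 of the 15 fell without it, against 5 without mouse 946. Snhg11, the neuronal list member that fell, followed the same order of mice at 178, 865, 379.6 and 529.9 CPM in Tissue-TRAP (-1.27 ± 0.23), and without mouse 946 its change was -0.92. Over all genes annotated as miscellaneous RNA, 6.21% were higher and 10.9% lower, against 9.03% and 2.94% of protein-coding genes.

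Genes of the translation machinery itself hardly moved. None of 79 cytosolic ribosomal protein genes, 35 translation factor genes and 75 nuclear genes of oxidative phosphorylation was called. Their medians were 0.08, 0.07 and -0.06, and the first pair of medians turned slightly negative with library totals (-0.01 for both). Of 17 host genes of small nucleolar RNAs 1 fell, Snhg7 (-1.23 ± 0.25), with 2 lower without mouse 946 and 3 without mouse 949, and the median of -0.57 was below that of all genes. Gas5, a host gene whose spliced RNA ends in early stop codons, changed by -0.66 ± 0.07, and Snhg8 by -0.89 ± 0.11. Mitochondrially encoded genes were not in the table analysed here.

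The change in Tissue-TRAP also differed with the length of the coding sequence. A coding length was found for 14214 of the 14268 protein-coding genes tested (99.6%). Between 500 and 1000 bases the median log2 fold change was 0.05 and 3.35% of 3195 genes fell, between 2000 and 4000 bases it was -0.05 and 1.77% of 3339 genes fell, and between 4000 and 8000 bases it was -0.15 and 4.75% of 885 genes fell. Over 8000 bases it was -0.53, and 27 of 161 genes fell (16.8%) while 7 rose (4.35%). Among these longest genes 98 were lower in 4 of 4 mice. The values were much the same over genes in none of the lists, where 25 of the 150 longest genes fell and the median was -0.55.

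Named examples of the longest genes were chosen after their values were seen. Fat2, a giant cadherin gene of the cerebellum, lay at 81.9, 54.6, 106 and 62.9 CPM in Tissue-Input and at 29.0, 16.1, 31.6 and 23 CPM in Tissue-TRAP (-1.61 ± 0.08). Trrap, a scaffold of histone acetyltransferases, lay at 104 to 114 CPM in Tissue-Input and at 37.1 to 47 CPM in Tissue-TRAP (-1.43 ± 0.08). The ubiquitin ligase gene Ubr4 and the calcium release channel gene Ryr2 changed by -1.27 ± 0.08 and -1.12 ± 0.10. By mouse, the median over the longest genes was -0.61 in mouse 946, -0.26 in mouse 947, -0.61 in mouse 948 and -0.52 in mouse 949, so that mouse 947 showed the smallest change here as for the nuclear RNAs and the microglial genes. The part of library preparation in this difference was not tested.

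**Figure D4:**
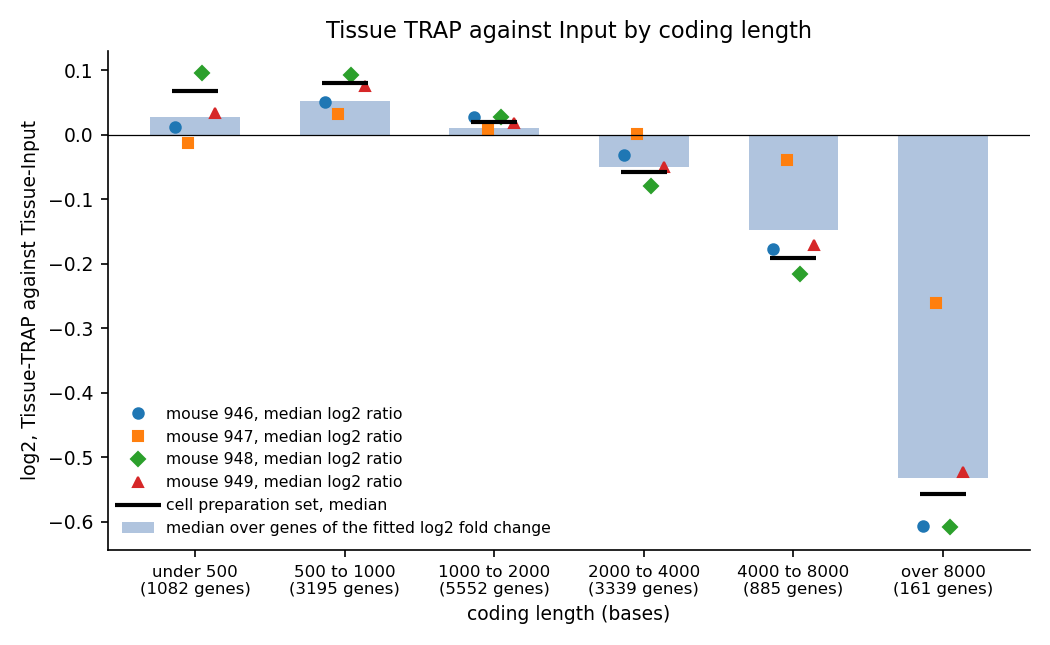
Median log2 fold change of Tissue-TRAP against Tissue-Input (bars) of protein-coding genes in 6 ranges of coding length, with the number of genes under each range; symbols are the medians of each mouse and black dashes those of the second library set. The medians lie within 0.1 of 0 up to 4000 bases and reach -0.53 in the range over 8000 bases, with mouse 947 at -0.26.

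The same mice had a second set of tissue samples, labelled with the comparison of inhibitors during cell preparation (here the cell preparation set). These held 8617626 to 11141511 counts and were deposited in another table. They came from the same animals and not from further animals, so they are a repeat of the measurement and not an independent test. Whether the 2 sets shared RNA or libraries was not settled. Fitted on its own, that set gave 1252 genes higher (8.62% of 14518 tested) and 455 lower (3.13%). Of the genes tested in both sets, 1123 were higher in both, which is 89.6% of those of the first set and 91.4% of those of the second. Lower in both were 274 genes, 66.3% and 62.1% of each, and none was called in opposite directions. Cx3cr1 changed by 4.42, Mag by -2.57, Slc1a2 by 1.15 and Cldn5 by 1.43 in the second set. Of Cx3cr1, Rpl10a and Rangap1, 2 were called higher there, with a median of 1.09, against 1 in the first set. The defining microglial genes had a median of 4.72, all 30 called higher, and the defining oligodendrocyte genes one of -1.99, with 15 of 17 lower. In the range over 8000 bases the median was -0.56. Peg3as did not repeat, at -0.60.

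The TRAP contrast of tissue was set beside the same contrast in the cell suspension made from the remaining tissue of these brains, where Cell-TRAP was compared with Cell-Input. The difference between the contrasts was tested as an interaction in 1 fit of 16 libraries, in which 5106 genes (32.8% of 15572) were higher in tissue and 829 (5.32%) were lower, a number that was 1260 without mouse 946 and 318 with library totals. The median of this difference over all genes was 0.33, and with library totals in place of TMM it moved by 0.296, so that differences are read against this shift. Of 14215 genes fitted in both preparations, 1063 were called higher in both and 353 lower in both. In the cell suspension 3878 genes fell that were not called in tissue, while 39 genes rose in tissue and fell in the suspension. Only 1700003D09Rik and Gm11149, 2 genes under 1 CPM on average that were chosen for this after their values were seen, fell in tissue and rose in the suspension.

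Microglial genes rose further in tissue. The defining genes had a median of 4.50 in tissue and 2.75 in the suspension, and for 27 of 30 the difference was called. Their share of counts went from 0.0975% ± 0.0179 to 1.83% ± 0.114 in tissue and from 1.51% ± 0.147 to 7.18% ± 0.292 in the suspension (SD, n = 4), so the suspension started higher and ended higher. Cx3cr1 lay at 19.9 to 29.8 CPM in Tissue-Input, 416 to 474 CPM in Tissue-TRAP, 443 to 607 CPM in Cell-Input and 3197 to 3906 CPM in Cell-TRAP in the joint fit, and its difference was 1.56 ± 0.14. The other cell types fell further in the suspension. The defining neuronal genes had medians of -0.20 in tissue and -2.03 in the suspension, the astrocyte genes -0.52 and -2.50, the oligodendrocyte genes -2.02 and -4.67, and the erythrocyte genes -2.61 and -6.12. The difference was called for 17 of 19, 20 of 20, 16 of 17 and 4 of 4 of these genes. Endothelial genes were called higher in 12 of 18 cases in tissue and in 1 of 18 in the suspension, where 3 fell, and all 18 differed between the preparations. Over all 14215 genes fitted in both preparations, 2484 rose in the suspension and 4270 fell.

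Early-response and ex vivo activation genes went the other way. Early-response genes are transcribed within minutes of stimulation, and the list also holds genes known to mark activation during cell preparation. The list was chosen with earlier results of these data known, so its direction in the suspension is not an independent test. Over all genes, 8.9% of those tested rose in tissue, and 2484 of the 14215 fitted in both preparations rose in the suspension. Of the 30 genes of this list 7 rose in tissue, with a median of 0.10, and 27 rose in the suspension, with a median of 1.99. The tissue count was 4 without mouse 948, with a median of 0.19, and the tissue median was 0.16 without mouse 947. The difference was called lower in tissue than in the suspension for 23 genes and higher for none. Fos lay at 42.4, 49.1, 23.7 and 26.3 CPM in Tissue-Input and at 43.6, 28.6, 23 and 26.3 CPM in Tissue-TRAP. In the suspension it lay at 758, 980.0, 702 and 681 CPM in Cell-Input and at 4248, 4524, 3637 and 3507 CPM in Cell-TRAP. The tissue fractions overlapped and the suspension fractions did not, and the difference of log2 fold changes was -2.55 ± 0.16 (adjusted p = 1.83e-09). Egr1 (-2.74 ± 0.12), Dusp1 (-2.66 ± 0.11), Egr2 (-2.75 ± 0.24) and Nfkbiz (-2.81 ± 0.21) differed by similar amounts. In tissue alone Egr1 was lower in TRAP than in Input, at 86.1 to 145 CPM against 168 to 252 CPM, without passing the fold threshold. Within tissue, Jund changed by -0.07 ± 0.06, Rhob by 0.97 ± 0.06 and Rgs1, a regulator of chemokine receptors, rose by 3.09 ± 0.33.

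The genes with the largest called differences were mostly at low levels in 1 preparation. Ptk2b and Rgs14, which neurons and microglia both express, differed by -2.49 ± 0.10 and -2.98 ± 0.14. Ptk2b lay at 388 to 479 CPM in Tissue-Input and 277 to 367 CPM in Tissue-TRAP, and at 69.7 to 81.1 CPM in Cell-Input and 303 to 342 CPM in Cell-TRAP. Spock1, a proteoglycan gene of neurons, was higher in tissue by 5.01 ± 0.23, from 204 to 224 CPM in Tissue-Input to 490.0 to 728 CPM in Tissue-TRAP, against 77.7 to 147 CPM in Cell-Input and 4.03 to 21.6 CPM in Cell-TRAP. The dopamine receptor gene Drd2 and the neuroglobin gene Ngb were listed at 0 in all 4 Cell-TRAP libraries, so their differences of 6.39 ± 0.91 and 7.31 ± 0.78 depend on the prior count of the fit. Ngb lay at 10.8 to 14 CPM in Tissue-Input and 8.49 to 14.5 CPM in Tissue-TRAP. The largest negative difference, that of Myo1h (-6.13 ± 1.60), moved with single libraries. Cell-TRAP of mouse 947 held 13.9 CPM and the other 3 held 0 to 0.0352 CPM, Tissue-TRAP of mouse 948 held 0.826 CPM and the other 3 held 15.4 to 19.7 CPM, and without mouse 947 the difference was 1.23. U05342 (-3.44 ± 1.67, adjusted p = 0.0812) lay at 33.3 CPM in Cell-Input of mouse 946 and at 0.332 to 0.883 CPM in the other 3, and was not called with library totals, with no block or without mouse 947, 948 or 949.

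**Figure D5:**
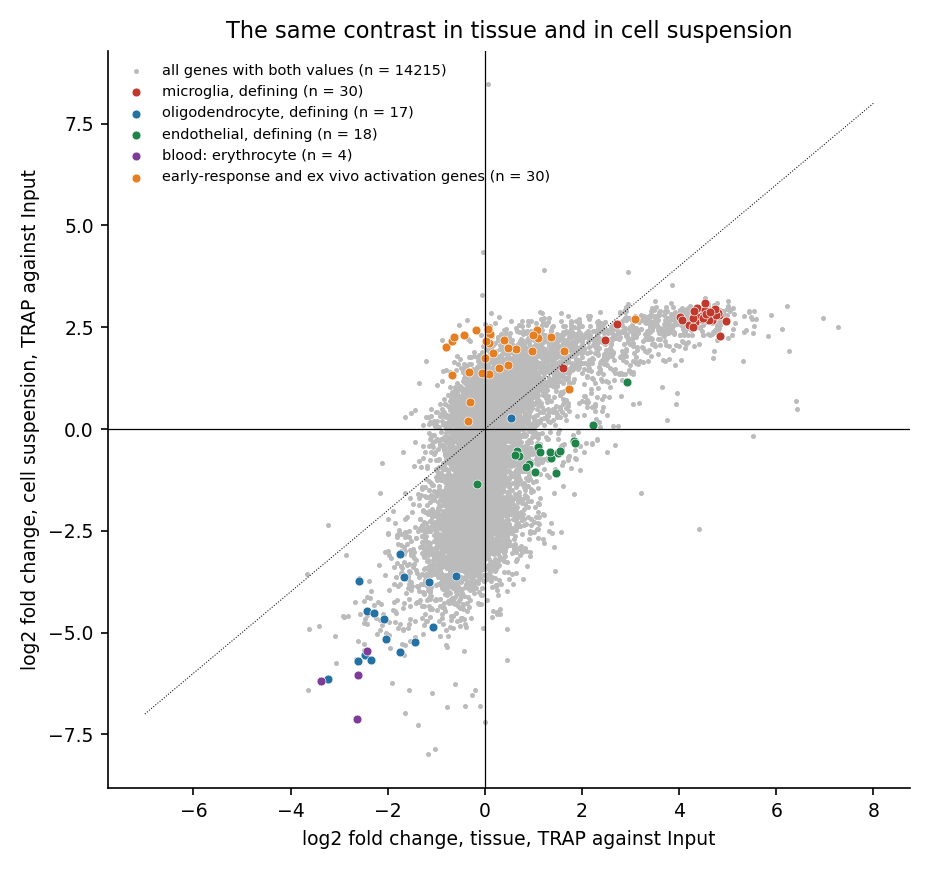
Each point is a gene fitted in both preparations, with the log2 fold change of TRAP against Input in tissue on the x axis and in the cell suspension on the y axis; the dotted line marks equal values. Microglial genes lie near 4.50 and 2.75, and early-response and ex vivo activation genes near 0 in tissue and near 2 in the suspension. Endothelial genes are mostly positive in tissue and mostly negative in the suspension, and oligodendrocyte genes are negative in both except for Trf.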

How the data were processed

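Gene-level expected counts were deposited by the authors, who made stranded poly(A) libraries, aligned reads to mm10 in Strand NGS with direction kept and removed duplicates. The values were mostly not whole and were rounded before fitting. Per the labels DESeq2 was used for the authors' normalized log2 columns, and these 80 columns were not used. Groups came from the labels, and the members and gene lists were chosen with earlier results of these data known. Genes with more than 5 counts in all libraries of a group were tested with edgeR 4.0.16 (quasi-likelihood test, TMM, mouse as block) in R 4.3.3, adjusted by Benjamini-Hochberg over all genes and called at an adjusted p under 0.1 and a fold above 2. The 4 mice were paired because both fractions came from the same animal, and the deviations of their libraries correlated at 0.189, 0.141, 0.150 and 0.415. The difference from the cell suspension was an interaction in 1 fit. DESeq2 1.42.0, limma 3.58.1, other filters, scalings and leaving out each mouse were alternatives, and those for differences of single genes and for coding length were chosen after seeing the data. A count of 3 was 0.172 to 0.241 CPM, which covers counting error only. Genes named in the text were those of the NuTRAP and defining microglial lists, the 15 largest rises and falls, the 3 highest members and the largest changes of each list, all members of lists of 12 or fewer and the 10 largest differences in each direction between preparations, and a few of these are not reported here. Coding lengths came from GENCODE M21 and promoters from RefSeq. The fits were tested on simulated data.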

Additional observations from a re-analysis of the deposited data

Results flagged for a closer look

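Of 326 groups of 4 libraries examined for a library far from the others, 18 (5.52%) held one, where chance gives about 1 in 20, and 10 of the 18 were libraries of mouse 947. In Tissue-Input of mouse 947 the levels that stood apart were those of P2ry12 (18.2 CPM), Csf1r (123 CPM), Trem2 (18 CPM), C1qa (81.3 CPM), Cd200 (81.3 CPM) and Rhob (329 CPM). In its Tissue-TRAP they were Hba-a1 (42.5 CPM), Hbb-b1 (12.2 CPM), Beta-s (14.8 CPM) and Rgs14 (19.5 CPM). In mouse 946 they were Psmb8 in Tissue-Input (5.35 CPM) and Opalin (0.716 CPM) and Peg3as (6.21 CPM) in Tissue-TRAP. In mouse 948 they were Ctsk in Tissue-Input (3.21 CPM) and Tmem119 (813 CPM) and Ermn (14 CPM) in Tissue-TRAP. In mouse 949 they were Mapt (1016 CPM) and Kcng1 (18.2 CPM) in Tissue-TRAP.

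The contrast of TRAP against Input differed between tissue and cell suspension for 5935 genes by the interaction test of edgeR. Among those named, it was lower in tissue for Egr1 (-2.74), Fos (-2.55), Dusp1 (-2.66), Egr2 (-2.75), Nfkbiz (-2.81), Rgs14 (-2.98), Ptk2b (-2.49), Myadml2 (-2.52), U05342 (-3.44) and Myo1h (-6.13). It was higher in tissue for Alas2 (4.60), Slc26a7 (4.69), Kcng1 (4.83), 2410004P03Rik (4.86), Gng13 (4.90), Map6d1 (4.93), Spock1 (5.01), Rasgef1c (5.72), Drd2 (6.39) and Ngb (7.31). All values are differences of log2 fold changes, tissue minus cell suspension.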

How the results depend on the processing

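The 1829 genes called in tissue (1334 higher and 495 lower) became 1262 with a minimum of 10 counts (990 higher and 272 lower), 1334 with limma (1108 and 226) and 1850 with library totals (1242 and 608), and 1802 to 1970 when each mouse was left out. Library totals moved the median of all genes by -0.0845. For the difference between preparations, 5935 genes became 3779 with a minimum of 10 counts and 6373 with library totals, which raised the share higher in tissue from 86.0% to 95.0%. The 829 genes lower in tissue became 318 with library totals, 1253 with no filter and 1260 without mouse 946. With no replicate block the counts were 1819 in tissue, 5902 for the difference and 1682 in the second set, against 1707 there with it, and among the genes named only U05342 was called with the pairing and not without it. Near 0, Aldoa (-0.0448), Gapdh (-0.0456) and Camk2a (-0.0045) changed sign with library totals. Leaving out each mouse gave -0.0916 to 0.0223 for Pkm, -0.267 to 0.0160 for Fos and -7.20 to 1.23 for the difference of Myo1h, each positive only without mouse 947, where Rhob also passed the fold threshold (1.004). The cause was not tested. Of 1614 gene values recomputed, 1602 kept direction and call. Named genes that did not pass the filter of a setting were left out of this count. Of 450 list medians recomputed, 18 moved by at least the SD of the medians of the mice. With 3 residual degrees of freedom and levels near 3 counts, small changes of low genes were not detectable at this depth.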
